A study of Mus musculus with 9 samples.

Results

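The 10 genes described here are *Nfe2l2*, which encodes the transcription factor NRF2, *Keap1*, which encodes its inhibitor, and 8 genes of antioxidant and ferroptosis defence: *Nqo1*, *Hmox1*, *Srxn1*, *Txnrd1*, *Slc7a11*, *Gclc*, *Gclm* and *Gpx4*. They were taken by gene symbol from a table of 54347 mouse genes, and all 10 were among the 13082 genes with enough counts to be tested. Poly-A RNA of 3 cell lines was sequenced, with 3 libraries per line. Hox-WT and Hox-URE cells were hematopoietic progenitors of mouse bone marrow, selected for c-Kit and immortalised with a Hoxb8-ER fusion, from a wild-type mouse and from a mouse lacking both copies of URE (UREd/d), the upstream enhancer of the PU.1 gene *Spi1*. URE-AML cells (line B22, labelled as resembling AML blasts, also UREd/d) grew out of leukemic blasts of a URE-deleted mouse that had developed acute myeloid leukemia, which the submitters' design text calls a HoxURE mouse. According to the labels, all lines were grown in IMDM with fetal calf serum, IL-3, IL-6, SCF and ß-estradiol. Wild type and the leukemic state were thus each represented by 1 line, and the deletion by a pair of lines that also differ in state and origin, so that genotype, leukemic state and line cannot be told apart. Nothing in the sources tells if a line's 3 libraries were separate cultures, so every p-value measures only the spread between libraries, which may be technical.

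NRF2 is a basic leucine zipper factor that switches on genes for detoxification and for the supply of glutathione and thioredoxin. In unstressed cells KEAP1 holds NRF2 in the cytoplasm and hands it to a CUL3 ubiquitin ligase for degradation, and oxidants or electrophiles release it, so its activity is set mostly at the protein level. Freed NRF2 pairs with small MAF proteins and binds the antioxidant response element (ARE), while BACH1 occupies the same elements as a repressor. Ferroptosis is an iron-dependent cell death driven by peroxidised membrane lipids, which GPX4 reduces at the expense of glutathione, and glutathione in turn needs the cystine that SLC7A11 imports. Myeloid cells make much reactive oxygen and handle much iron and heme, and both parts of this defence are used there.

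The promoter sequences are shown because the ARE is the element through which NRF2 acts on these genes. RefSeq windows (GRCm38.p6), from 250 bases before to 50 bases after each annotated start, were at hand for 8 of the 10 members, *Hmox1* and *Gclc* being without an entry. The ARE core TGACNNNGC, searched on both strands, was found in the windows of 4 of these 8 genes, against 14.0% of all 27025 genes and 12.4% of all 32851 windows. Capitals mark the match, each stretch is written along the strand of its gene, and the matches of *Gclm*, *Txnrd1* and *Srxn1* read as the core on the opposite strand. The first 4 letters of the core also begin an AP-1 site, and AP-1 sites were not searched. For *Nfe2l2*, the bases just after the RefSeq start were found in no GENCODE transcript of the gene. Its start, and so the distance of its match, is therefore uncertain.
Nfe2l2 (chr2:75704875-75704913, minus strand; match at -240 to -232 from the start): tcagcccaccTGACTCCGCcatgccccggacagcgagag
Gclm (chr3:122245403-122245451, plus strand; match at -134 to -126): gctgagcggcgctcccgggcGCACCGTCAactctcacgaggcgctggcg
Txnrd1 (chr10:82859094-82859142, plus strand; match at -92 to -84 of 1 of its 3 starts): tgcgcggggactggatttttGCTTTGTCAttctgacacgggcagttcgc
Srxn1 (chr2:152105542-152105570, plus strand; match at 29 to 37 after the start): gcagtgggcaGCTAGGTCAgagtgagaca
*Nqo1*, the member whose level differed most between the lines, had no match to this core in its window. Its 250 bases before the start, in which nothing is marked, were:
Nqo1 (chr8:107403206-107403455, minus strand): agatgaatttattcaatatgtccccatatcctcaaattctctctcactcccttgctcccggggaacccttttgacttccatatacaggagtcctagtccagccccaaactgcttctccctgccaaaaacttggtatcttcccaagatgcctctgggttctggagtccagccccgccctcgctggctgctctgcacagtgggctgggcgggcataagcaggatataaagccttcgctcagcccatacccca
The core of the PU.1 site, GAGGAAGT, was in 3.20% of all windows and that of the RUNX site, TGTGGT, in 16.8%, and both were in none of the windows of the 8 members. These matches describe letters and were not tested for binding, and elements further from the start were not searched.

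The libraries held between 20331064 and 28588718 counts, and levels are given as CPM, counts brought to a common library size with TMM scaling, in which 3 counts, used here as the floor, correspond to 0.104 to 0.153 CPM. *Spi1* was at 110, 101 and 96.5 CPM in Hox-WT, at 1, 1 and 0 counts in Hox-URE and at 2.5, 5.52 and 6.35 CPM in URE-AML, so both lines labelled UREd/d lay below Hox-WT, and the 3 lines did not overlap. Within Hox-URE, library 1 stood somewhat apart: over all genes its chi-square per degree of freedom was 73.8 and 109 against the other 2 libraries, which differed from each other by 28.9. The lines also differed in their myeloid markers. Neutrophil markers summed to 5613 to 9042 CPM in Hox-WT (7 of 9 above 1 CPM) and 2618 to 4003 in Hox-URE (4 of 9). In URE-AML the sum was 11270 to 25957 (9 of 9), and *S100a9* and *Ltf* were at 0 in Hox-URE. The largest part was *Mpo* in wild-type cells (mean of 5042 CPM), *Ctsg* in Hox-URE (3325) and *Elane* in the leukemia line (7311). *Ctsg* rose between the Hox lines, from 1993 CPM in the wild type, while the other neutrophil markers had lower means in the URE-deleted line. In URE-AML *Mpo* (192 CPM) lay below the wild type, and the others above it. Basophil and mast cell markers summed to 373 to 732, 1404 to 5648 and 24.9 to 55.1 CPM in the same order of lines. They had 3, 4 and 2 of 6 above 1 CPM, with *Fcer1a* at 0 in both Hox lines. Progenitor markers summed to 1919 to 2171 CPM in Hox-WT (5 of 5 above 1 CPM), 1157 to 1684 in Hox-URE (5 of 5) and 263 to 306 in URE-AML (3 of 5, with *Hoxb8* at 0). *Cd34* was the largest part in both Hox lines (means of 1434 and 926 CPM) and near 0 in URE-AML (0.0135 CPM). *Kit* and *Myb* had higher means in URE-AML (97.0 and 177 CPM) than in Hox-URE (43.0 and 167 CPM), and the other markers lower ones. Between the Hox lines *Gata2* and *Hoxb8* were higher in Hox-URE, and the others lower. Both Hox lines carry a Hoxb8-ER fusion, so *Hoxb8* cannot be read as a progenitor marker here. Monocyte and macrophage markers summed to 300.2 to 309 CPM in Hox-WT (4 of 9), 842 to 945 in Hox-URE (3 of 9) and 217 to 508 in URE-AML (5 of 9), with *C1qa* at 0 in all 3 lines. A different gene carried each of these sums, *Adgre1* in Hox-WT (274 CPM), *Ccr2* in Hox-URE (885) and *Vcam1* in URE-AML (354), and *Adgre1*, *Irf8*, *Cd68* and *Csf1r* had lower means in Hox-URE than in wild-type cells although its sum was higher. Lymphoid markers summed to at most 3.29 CPM, megakaryocyte markers to at most 51.0 and erythroid markers to at most 19.0. The 5 markers of stromal and endothelial cells gave sums of 160 to 169 CPM (Hox-WT), 218 to 226 CPM (Hox-URE) and 622 to 834 CPM (URE-AML), nearly all of it *Pecam1*, with *Col1a2* at 2.69 CPM in Hox-URE and *Col3a1* and *Dcn* at 0 in every library. These marker levels moved with the lines, and so with every result given here, and their part in the differences was not tested. In bulk RNA, fewer cells of a type and less RNA per cell cannot be told apart.

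**Figure D1:**
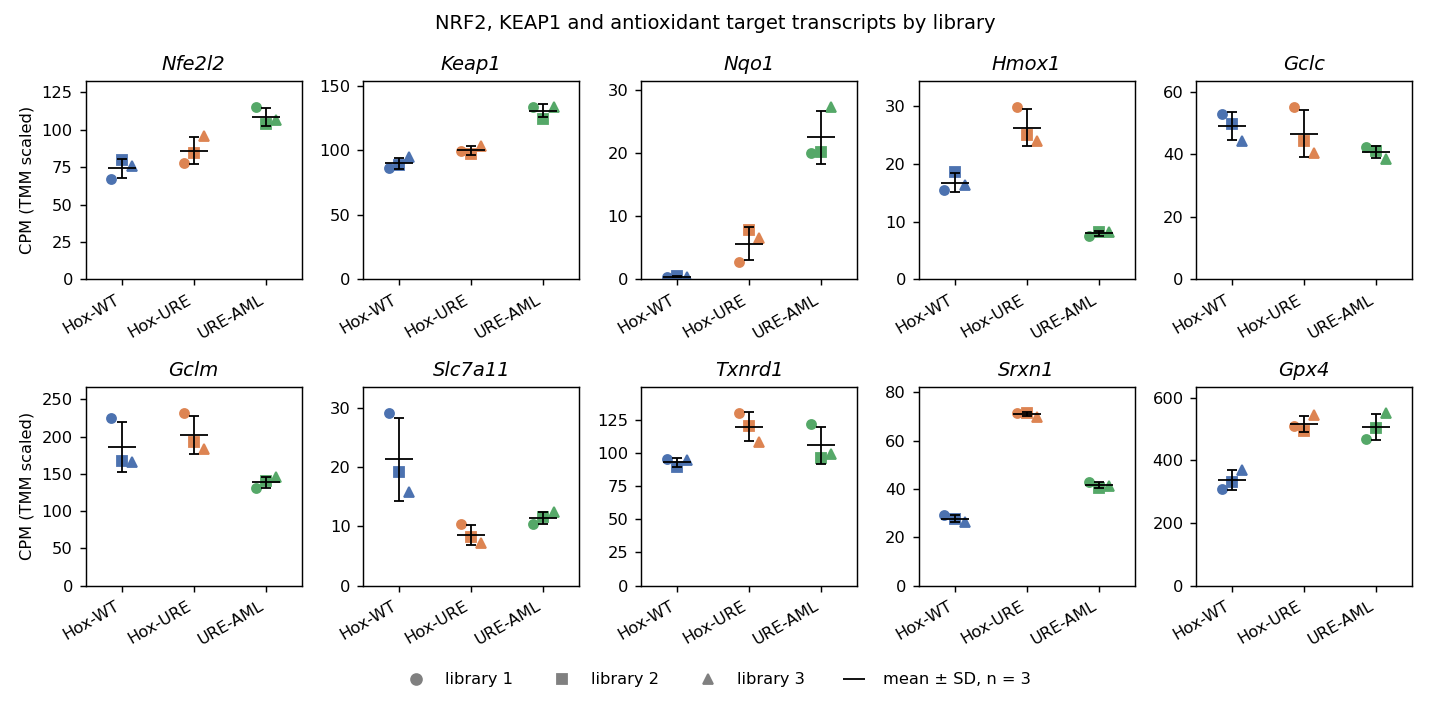
Levels of the 10 members in each library, in CPM on a linear axis from 0, by line (colour) and library number (symbol); black bars give the mean ± SD of 3 libraries. *Nqo1* lies under 1 CPM in Hox-WT and above 20 in URE-AML, *Hmox1* and *Srxn1* were highest in Hox-URE, *Slc7a11* was highest in Hox-WT, and *Nfe2l2* and *Keap1* differed less than these.

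Calls follow the study's thresholds, an adjusted p under 0.05 (edgeR's quasi-likelihood test, Benjamini-Hochberg over all 13082 genes) together with a change of more than 1.5-fold. Each comparison draws on the same libraries as another, so the 3 are not independent. Between Hox-URE and Hox-WT, 4 members were called higher (*Nqo1*, *Srxn1*, *Hmox1* and *Gpx4*) and 1 lower (*Slc7a11*), where 37.2% of all genes were called, 21.3% higher and 15.9% lower. Between URE-AML and Hox-WT, 3 were called higher (*Nqo1*, *Srxn1* and *Gpx4*) and 2 lower (*Hmox1* and *Slc7a11*), where 43.2% of all genes were called, 23.0% higher and 20.2% lower. Of these 3, *Srxn1* and *Gpx4* lay at the fold threshold, and only 1 was called with upper-quartile scaling or without any single Hox-URE library. Between URE-AML and Hox-URE, 1 was called higher (*Nqo1*) and 2 lower (*Hmox1* and *Srxn1*), where 42.7% of all genes were called, 20.3% higher and 22.4% lower. The members were thus called at about the rate of all genes, in both directions in each comparison. Their median log2 fold changes were 0.29, 0.36 and -0.10, beside a median over all tested genes of 0.00 in each comparison. The libraries of the lines did not overlap for 7, 10 and 7 of the 10 members, where this held for 60.3%, 67.6% and 62.8% of all genes.

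**Figure D2:**
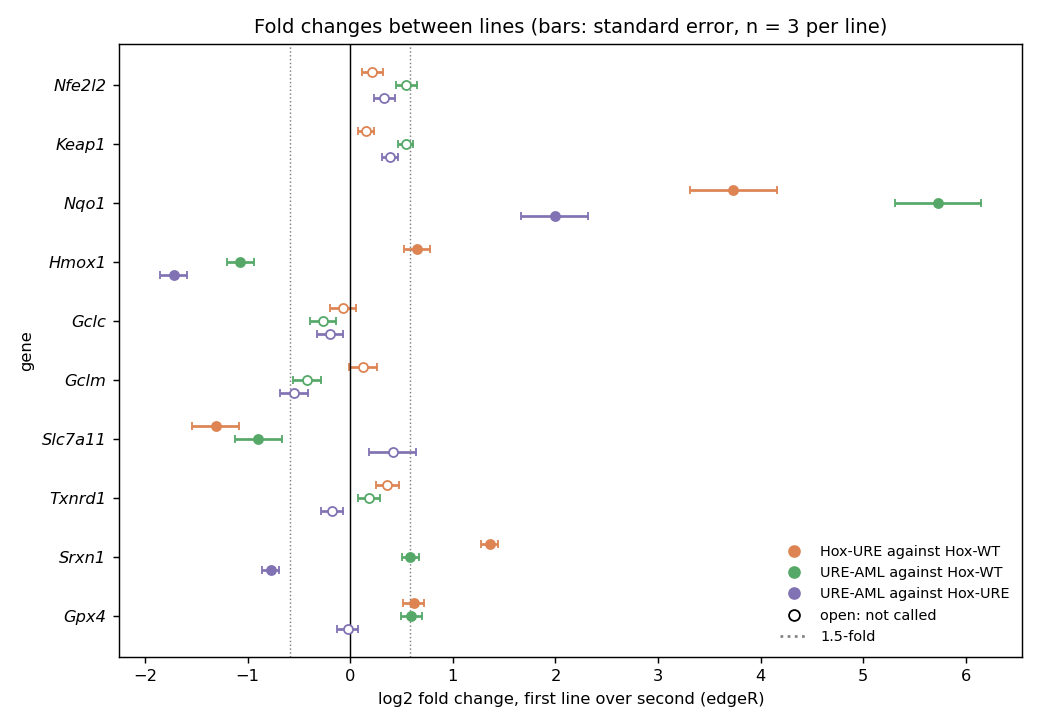
Log2 fold change of each member in the 3 comparisons (colour), with bars of 1 standard error; filled points were called, open points were not, and dotted lines mark 1.5-fold. *Nqo1* lies far to the right in all 3 comparisons, *Hmox1* changes side between the lines, and the 2 open points of *Nfe2l2* and *Keap1* for URE-AML against Hox-WT lie just inside the 1.5-fold line.

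The regulators themselves differed little. *Nfe2l2* (chr2:75675513-75704641, minus strand) was at 67.0, 79.9 and 75.6 CPM in Hox-WT, 77.9, 84.8 and 95.6 in Hox-URE and 115, 104 and 106 in URE-AML. The Hox lines overlapped, and all URE-AML libraries were above both. The log2 difference was 0.22 ± 0.10 (SE) between Hox-URE and Hox-WT (edgeR adjusted p = 0.104) and 0.55 ± 0.10 between URE-AML and Hox-WT (adjusted p = 0.00108), a 1.46-fold difference that stayed short of the fold threshold. URE-AML lay above Hox-URE by 0.33 ± 0.10 (adjusted p = 0.0182), again short of it. Without Hox-WT library 2 the URE-AML difference from Hox-WT was 0.60 and was called.

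*Keap1* (chr9:21229730-21239361, minus strand), whose product captures NRF2, was at 86.4, 88.6 and 94.6 CPM in Hox-WT, 99.9, 96.9 and 103 in Hox-URE and 134, 125 and 133 in URE-AML. The 3 lines did not overlap, and URE-AML was highest, as it was for *Nfe2l2*. The log2 difference of URE-AML was 0.54 ± 0.08 from Hox-WT (edgeR adjusted p = 0.00016) and 0.39 ± 0.08 from Hox-URE (adjusted p = 0.00149), both under 1.5-fold. Between the Hox lines it was 0.15 ± 0.08 (adjusted p = 0.114).

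*Nqo1* (chr8:107388225-107403206, minus strand) encodes a quinone reductase that is widely read as a marker of NRF2 activity, and it showed the widest range of the 10. It was at 0.450, 0.50 and 0.311 CPM in Hox-WT (12, 14 and 9 counts), 2.73, 7.75 and 6.54 in Hox-URE (75, 187 and 128 counts) and 20.0, 20.1 and 27.3 in URE-AML. The lines did not overlap and followed one order, Hox-WT lowest and URE-AML highest, with a spread in Hox-URE that came from its library 1. Hox-URE exceeded Hox-WT by 3.73 ± 0.42 on the log2 scale (13.3-fold, edgeR adjusted p = 4.69e-05). URE-AML exceeded Hox-WT by 5.73 ± 0.42 (53.0-fold, adjusted p = 1.42e-06) and Hox-URE by 1.99 ± 0.33 (3.98-fold, adjusted p = 0.000442). All 3 calls were also made without Hox-URE library 1, at 4.07, 5.72 and 1.65.

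*Hmox1* (chr8:75093621-75100589, plus strand) encodes heme oxygenase 1, which opens the heme ring and frees its iron, and is repressed by BACH1. It was at 15.4, 18.5 and 16.3 CPM in Hox-WT, 29.9, 25.0 and 24.0 in Hox-URE and 7.43, 8.23 and 8.28 in URE-AML. No lines overlapped, and the leukemia line was lowest, unlike *Nqo1*. The log2 difference was 0.65 ± 0.13 between Hox-URE and Hox-WT (1.57-fold, edgeR adjusted p = 0.00162). URE-AML fell by 1.07 ± 0.13 from Hox-WT (adjusted p = 5.83e-05) and by 1.72 ± 0.13 from Hox-URE (adjusted p = 2.15e-06). The higher level in Hox-URE rested on its library 1 for the call, since without it the difference was 0.54, under the fold threshold, with an adjusted p of 0.0045.

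*Srxn1* (chr2:152105516-152111376, plus strand), the sulfiredoxin that restores over-oxidised peroxiredoxins, had the lowest coefficient of variation of the 10 in Hox-URE (1.13%) and URE-AML (2.95%), though not in Hox-WT (5.38%). It was at 29.2, 27.4 and 26.3 CPM in Hox-WT, 71.3, 71.4 and 70.0 in Hox-URE and 42.8, 40.3 and 41.3 in URE-AML. Hox-URE was highest and Hox-WT lowest, with no overlap. Hox-URE exceeded Hox-WT by 1.36 ± 0.08 on the log2 scale (2.57-fold, edgeR adjusted p = 7.45e-07), and URE-AML fell by 0.77 ± 0.08 from Hox-URE (adjusted p = 2.53e-05). URE-AML exceeded Hox-WT by 0.59 ± 0.08 (adjusted p = 0.00017), which at 1.5-fold only just met the threshold. Leaving out URE-AML library 1, any Hox-URE library, or Hox-WT library 2 or 3 took it below, at 0.54 to 0.58 with adjusted p-values up to 0.0017.

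*Txnrd1* (chr10:82833951-82897712, plus strand), the cytosolic selenoenzyme that recharges thioredoxin, was at 95.3, 89.4 and 95 CPM in Hox-WT, 130.4, 121 and 109 in Hox-URE and 122, 96.7 and 99.2 in URE-AML. Both lines with the deletion lay above Hox-WT in every library and overlapped each other. No comparison was called. The log2 difference was 0.36 ± 0.11 between Hox-URE and Hox-WT (1.29-fold, edgeR adjusted p = 0.0168), 0.18 ± 0.11 between URE-AML and Hox-WT (adjusted p = 0.17) and -0.18 ± 0.11 between URE-AML and Hox-URE (adjusted p = 0.184).

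*Slc7a11* (chr3:49892526-50443614, minus strand), the cystine importer of system xc-, was the member that fell in both lines with the deletion. It was at 29.2, 19.1 and 15.7 CPM in Hox-WT, 10.4, 8.12 and 7.20 in Hox-URE and 10.4, 11.6 and 12.4 in URE-AML. All Hox-WT libraries were above all others, and Hox-WT library 1 was far above its own line. The log2 difference was -1.31 ± 0.23 between Hox-URE and Hox-WT (2.48-fold lower, edgeR adjusted p = 0.000869) and -0.89 ± 0.23 between URE-AML and Hox-WT (1.86-fold lower, adjusted p = 0.00641). Without Hox-WT library 1 the differences were -1.02 and -0.61 and both were called. Between the lines with the deletion it was 0.41 ± 0.23 (95% interval -0.10 to 0.93, adjusted p = 0.15).

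*Gclc* and *Gclm* encode the catalytic and modifier subunits of glutamate cysteine ligase, which makes the first bond of glutathione. *Gclc* (chr9:77754535-77794485, plus strand) was at 53.1, 49.9 and 44.4 CPM in Hox-WT, 55.2, 44.3 and 40.6 in Hox-URE and 42.3, 41.2 and 38.7 in URE-AML. The lines lay close together, and the log2 differences were -0.07 ± 0.13 (edgeR adjusted p = 0.665), -0.27 ± 0.13 (adjusted p = 0.0925) and -0.20 ± 0.13 (adjusted p = 0.206) in the order of the comparisons above. *Gclm* (chr3:122245557-122270732, plus strand) was at 224, 168 and 165 CPM in Hox-WT, 232, 193 and 183 in Hox-URE and 130.4, 139.8 and 146 in URE-AML. The Hox lines overlapped, and all 3 URE-AML libraries were below both. URE-AML lay below Hox-WT by a log2 difference of -0.42 ± 0.14 (adjusted p = 0.021) and below Hox-URE by -0.55 ± 0.14 (1.46-fold, adjusted p = 0.00555), neither past the fold threshold. Without Hox-URE library 3 the latter was -0.62 and was called. Between the Hox lines the difference was 0.13 ± 0.13 (adjusted p = 0.456). Library 1 was the highest of its line for *Slc7a11*, *Gclc* and *Gclm* in both Hox lines.

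*Gpx4* (chr10:80047166-80056439, plus strand) encodes the selenium-dependent peroxidase that clears lipid hydroperoxides from membranes and is the central guard against ferroptosis. It was at 308, 331 and 371 CPM in Hox-WT, 512, 494 and 544 in Hox-URE and 468, 503 and 552 in URE-AML. Both lines with the deletion were above Hox-WT in every library and overlapped each other. The log2 difference from Hox-WT was 0.62 ± 0.10 in Hox-URE (1.54-fold, edgeR adjusted p = 0.000572) and 0.59 ± 0.10 in URE-AML (1.51-fold, adjusted p = 0.000583). Both calls lay near the fold threshold: the first was lost without Hox-URE library 3 (0.57) or Hox-WT library 1 (0.56), the second without URE-AML library 3, any Hox-URE library, or Hox-WT library 1 or 2 (0.53 to 0.58). Between URE-AML and Hox-URE the difference was -0.03 ± 0.10 (95% interval -0.25 to 0.20, adjusted p = 0.85), and its sign turned with the scaling.

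Levels can be set between genes only per length, here as CPM per kilobase of the median coding transcript. *Gpx4* was highest in every line, at 351 ± 33.3 (SD, n = 3) in wild-type cells, 539 ± 26.7 in Hox-URE and 529 ± 43.8 in the leukemia line. With this length *Gclm* followed at 185 ± 33.4, 202 ± 25.4 and 138 ± 7.63. A middle group of *Nfe2l2*, *Keap1* and *Txnrd1* lay between 26.9 and 46.6 in all libraries, with *Nfe2l2* and *Keap1* overlapping in each line. Below them in Hox-WT came *Gclc* (13.0 to 15.5), then *Hmox1* and *Srxn1*, which overlapped at 9.34 to 11.8, then *Slc7a11* at 3.67 ± 1.2 and *Nqo1* last at 0.271 ± 0.0629. *Nqo1* had rank 9 of 10 in Hox-URE at 3.65 ± 1.69 and rank 7 in URE-AML at 14.5 ± 2.70, where it overlapped *Srxn1* at 14.8 ± 0.434 and *Slc7a11* was last at 1.97 ± 0.171. The order depended on the length used for genes with long alternative exons: per kilobase of all exons joined, the rank of *Gclm* in URE-AML was 4 instead of 2, and that of *Txnrd1* in Hox-URE 6 instead of 3.

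By the root mean square difference of centred log2 CPM over the 9 libraries, the genes most like *Nfe2l2* were *Dync1i2*, a dynein subunit (0.0512), *Gpkow* (0.0663) and *Txndc12*, a thioredoxin-domain protein (0.0855). *Dync1i2* had line means of 90.3, 106 and 130.3 CPM in wild-type, Hox-URE and leukemia cells, beside 74.1, 86.1 and 108 for *Nfe2l2*. The genes most like *Nqo1* were further off: *Lmna*, which encodes lamin A and C (0.430), *Lypd6b* (0.434) and *F7*, coagulation factor VII (0.437). The line means of *Lmna* were 0.967 CPM in Hox-WT, 9.94 in its URE-deleted counterpart and 27.4 in the leukemia line.

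Around the members stand 104 other genes of redox and iron metabolism, in 11 lists written for this comparison with earlier results of these data known. Of these, 96 were tested. Between Hox-URE and Hox-WT 33 were called higher and 11 lower (45.8%), between URE-AML and Hox-WT 31 and 17 (50%), and between URE-AML and Hox-URE 18 and 21 (40.6%), beside the 37.2%, 43.2% and 42.7% of all genes given above. The median log2 fold changes were 0.33, 0.24 and -0.08. With the members included, the lists held 37 higher and 12 lower calls, 34 and 19, and 19 and 23, and without Hox-URE library 1 they held 38 and 10, 33 and 20, and 20 and 26. Genes named below without values complete a small count.

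**Figure D3:**
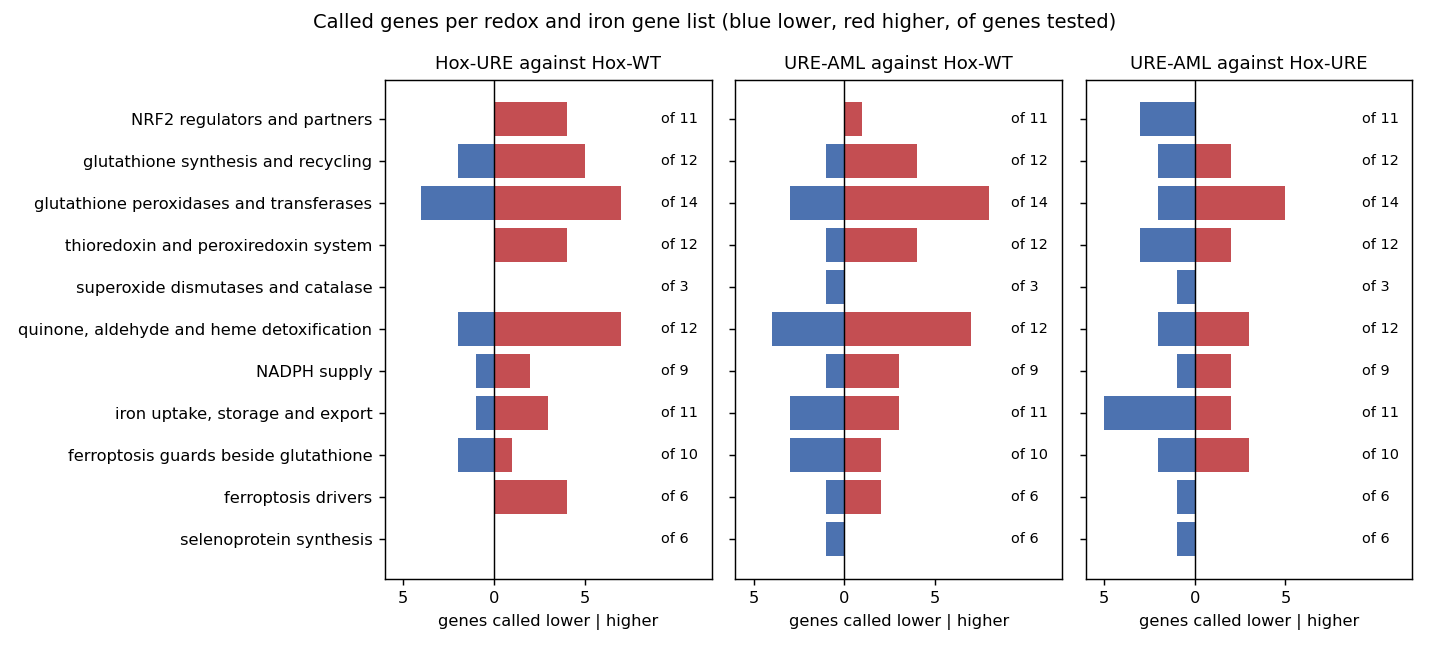
Number of genes called higher (red, to the right) and lower (blue, to the left) in each of the 11 lists, members included, for the 3 comparisons; the number tested stands at the right of each row. The lists of glutathione peroxidases and transferases and of quinone, aldehyde and heme detoxification hold 7 or 8 higher calls in both comparisons with Hox-WT, and that of selenoprotein synthesis none.

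Among 11 tested regulators and partners of NRF2, Hox-URE had 4 higher calls against Hox-WT (*Sqstm1*, *Mafg*, *Maff* and *Nfe2*) and no lower one. URE-AML had 1 higher call against Hox-WT (*Mafg*) and 3 lower calls against Hox-URE (*Sqstm1*, *Maff* and *Bach1*). The calls of *Maff*, a small MAF protein, rested on library 1 of Hox-URE. It was at 2.17, 2.75 and 1.31 CPM in Hox-WT, 13.2, 4.64 and 2.09 in Hox-URE and 2.02, 2.47 and 1.85 in URE-AML, and Hox-URE overlapped both other lines. Without that library the log2 differences were 0.70 (edgeR adjusted p = 0.169) from Hox-WT and -0.69 (adjusted p = 0.172) between URE-AML and Hox-URE, and leaving out Hox-WT library 1 or 3 (the first) or any URE-AML library (the second) also ended the call. The call of *Bach1* lay near the fold threshold and was lost without URE-AML library 3 or Hox-URE library 1 or 2 (-0.57 to -0.48). *Sqstm1* encodes p62, an autophagy receptor that also binds KEAP1 and frees NRF2. It was at 226, 239 and 245 CPM in Hox-WT, 1227, 577 and 681 in Hox-URE and 164, 180.4 and 189 in URE-AML. Hox-URE was above both other lines in every library, its library 1 most of all, by a log2 difference of 1.81 ± 0.24 from Hox-WT (edgeR adjusted p = 0.000132). URE-AML fell by 2.22 ± 0.24 from Hox-URE (adjusted p = 2.69e-05).

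In the glutathione synthesis and recycling list of 12 tested genes, set against Hox-WT, Hox-URE had 5 higher and 2 lower calls and URE-AML 4 and 1, while URE-AML set against Hox-URE had 2 and 2. *Gsr*, glutathione reductase, which regenerates glutathione with NADPH, was at 28.3, 30.7 and 24.1 CPM in Hox-WT, 16.5, 20.9 and 17.5 in Hox-URE and 99.8, 106 and 149.6 in URE-AML. The lines did not overlap, with URE-AML above Hox-WT by 2.10 ± 0.17 on the log2 scale (edgeR adjusted p = 3.17e-06) and Hox-URE below it by -0.60 ± 0.17 (adjusted p = 0.0137). The second call was lost without any of 4 Hox libraries (Hox-URE 1 or 3, Hox-WT 1 or 2), at -0.58 to -0.52. *Glrx*, glutaredoxin 1, which removes glutathione from proteins, rose along the same order as *Nqo1*, with line means of 48.5 ± 6.11, 115 ± 15.2 and 611 ± 49.4 CPM (SD, n = 3) and log2 differences of 1.24 ± 0.13 (adjusted p = 2.94e-05), 3.65 ± 0.14 (adjusted p = 1.58e-08) and 2.41 ± 0.13 (adjusted p = 1.99e-07). *Chac1*, which degrades glutathione and is a target of the ATF4 stress response, was at 3.52, 12.4 and 4.84 CPM in Hox-WT, 51.2, 30.05 and 18.0 in Hox-URE and 3.92, 8.28 and 5.88 in URE-AML. Hox-URE was above both other lines in every library, by 2.26 ± 0.50 over Hox-WT (adjusted p = 0.00371), while URE-AML fell by 2.47 from Hox-URE (adjusted p = 0.00208). Without Hox-WT library 2 the first difference of *Chac1* was 2.98.

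Of 14 tested glutathione peroxidases and transferases, Hox-URE had 7 higher and 4 lower calls against Hox-WT, and URE-AML had 8 and 3 calls against Hox-WT and 5 and 2 against Hox-URE. *Gpx3*, a secreted peroxidase, had no count in Hox-WT, 160, 299 and 376 counts in Hox-URE and 309, 341 and 464 in URE-AML. Against the floor of 3 counts per library it was at least 116-fold higher in Hox-URE and at least 150.3-fold higher in URE-AML. *Gpx8*, a peroxidase of the endoplasmic reticulum, went the other way, with 51, 59 and 92 counts in Hox-WT and none in either other line, at least 18.6-fold and 18.3-fold lower. *Mgst1*, a membrane-bound glutathione transferase that also reduces lipid peroxides, was at 0.450, 1.64 and 1.14 CPM in Hox-WT, 0.0728, 0.373 and 0.307 in Hox-URE and 357, 277 and 302 in URE-AML. The URE-AML libraries were far above all others, by a log2 difference of 8.16 ± 0.34 from Hox-WT (edgeR adjusted p = 2.63e-08) and 10.32 ± 0.41 from Hox-URE (adjusted p = 2.19e-08). *Gstk1*, a transferase of mitochondria and peroxisomes, had 3 counts in all of Hox-URE and 16 in Hox-WT but was at 4.68, 4.85 and 8.15 CPM in URE-AML, 4.92 ± 0.51 above Hox-WT (adjusted p = 1.87e-05).

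Of 12 tested genes of the thioredoxin and peroxiredoxin system, 4 were called higher in Hox-URE cells (*Srxn1*, *Txn1*, *Txnip* and *Prdx5*) and none lower, set against Hox-WT. In URE-AML 4 were called higher than in Hox-WT (*Srxn1*, *Txn1*, *Prdx3* and *Prdx5*) and 1 lower (*Prdx2*), and 2 were called higher (*Prdx3* and *Prdx5*) and 3 lower (*Srxn1*, *Prdx2* and *Prdx4*) than in Hox-URE, the call of *Prdx3* being lost without URE-AML library 1 (0.56). *Prdx5*, a peroxiredoxin of mitochondria and peroxisomes, was at 144, 167 and 173 CPM in Hox-WT, 413, 364 and 345 in Hox-URE and 602, 631 and 768 in URE-AML. The lines did not overlap, and the log2 differences from Hox-WT were 1.21 ± 0.12 in Hox-URE (edgeR adjusted p = 2.39e-05) and 2.05 ± 0.13 in URE-AML (adjusted p = 3.94e-07). *Prdx4*, the peroxiredoxin of the secretory pathway, was called only between URE-AML and Hox-URE, where it fell by 2.12 ± 0.56 (adjusted p = 0.00816), while its values ranged from 3.52 to 12.1 CPM within Hox-WT and from 7.17 to 28.5 within Hox-URE. Of *Sod1*, *Sod2* and *Cat*, which dismute superoxide and hydrogen peroxide, *Sod1* was called lower in URE-AML than in both other lines.

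Of 12 tested genes of quinone, aldehyde and heme detoxification, the calls against Hox-WT were 7 higher and 2 lower in Hox-URE and 7 and 4 in URE-AML, and those of URE-AML against Hox-URE 3 and 2. *Aldh3a1*, an aldehyde dehydrogenase best known from cornea and stomach, showed the sharpest contrast of all lists. It had 0, 0 and 1 counts in Hox-WT, none in Hox-URE and 3540, 2576 and 2970 in URE-AML, where it stood at 143, 123 and 127 CPM. URE-AML was thus at least 1016-fold higher for it than Hox-URE, and its ratio to the single count in Hox-WT was 10993 (95% counting interval 1973 to 434240). *Osgin1*, a growth inhibitor induced by oxidative stress, was at 1.42, 1.54 and 1.45 CPM in Hox-WT, 6.34, 3.15 and 3.78 in Hox-URE and 9.65, 6.95 and 7.51 in URE-AML, in the same order of lines as *Nqo1* and without overlap. Its log2 differences were 1.59 ± 0.29 (edgeR adjusted p = 0.00103), 2.45 ± 0.29 (adjusted p = 4.49e-05) and 0.86 ± 0.27 (adjusted p = 0.019), the last lost without URE-AML library 1 (0.71), Hox-URE library 2 (0.66) or Hox-URE library 3 (0.76). *Ephx1*, microsomal epoxide hydrolase, rose in both lines with the deletion, from 0.722 ± 0.371 CPM to 3.87 ± 2.5 and 4.14 ± 0.616 (SD, n = 3). *Cbr3*, a carbonyl reductase, fell in the same order in which *Nqo1* rose, with 50, 45 and 51 counts in Hox-WT, 6, 6 and 2 in Hox-URE and 1, 0 and 0 in URE-AML.

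For the supply of NADPH, which NQO1, glutathione reductase and thioredoxin reductase consume, the transcripts of 9 genes were counted, and NADPH itself was not measured. Hox-URE had 2 higher calls and 1 lower call against Hox-WT, and URE-AML had 3 and 1 against Hox-WT and 2 and 1 against Hox-URE. *Me1*, malic enzyme 1, was at 0.0750, 0.286 and 0.0346 CPM in Hox-WT, 0.146, 0.166 and 0.102 in Hox-URE and 2.95, 4.04 and 4.03 in URE-AML. The Hox lines overlapped near the floor, and URE-AML was above them by 4.75 ± 0.54 and 4.67 ± 0.55 on the log2 scale (edgeR adjusted p = 3.51e-05 and 4.63e-05), the first of which was 5.95 without Hox-WT library 2, which held most of that line's few counts. The 6 genes of selenoprotein synthesis, on which GPX4 and TXNRD1 depend, gave no call between the Hox lines and 1 in each other comparison, a lower level of *Eefsec* in URE-AML.

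Iron feeds lipid peroxidation, and of its 11 genes of uptake, storage and export Hox-URE had 3 higher calls and 1 lower call beside Hox-WT, URE-AML had 3 of each beside Hox-WT, and 2 were called higher and 5 lower when URE-AML was set beside Hox-URE. *Slc40a1*, ferroportin, the iron exporter and a BACH1 and NRF2 target in macrophages, had 0, 8 and 3 counts in Hox-WT and 20, 2 and 6 in Hox-URE but was at 50.6, 101 and 98.7 CPM in URE-AML, a log2 difference of 9.26 ± 0.60 from Hox-WT (edgeR adjusted p = 5.69e-07) and 7.73 ± 0.54 from Hox-URE (adjusted p = 1.07e-06). With so few counts in the Hox lines the sizes rested on single libraries: the first was 10.47 without Hox-WT library 2 and the second 8.79 without Hox-URE library 1. *Tfrc*, the transferrin receptor that brings iron in, was at 302, 285 and 275 CPM in Hox-WT, 231, 169 and 169.6 in Hox-URE and 429, 464 and 468 in URE-AML. The 3 lines were in the order Hox-URE, Hox-WT, URE-AML without overlap. Its difference was -0.60 ± 0.12 between the Hox lines (adjusted p = 0.00248), near the fold threshold and lost without Hox-URE library 2 or 3 or Hox-WT library 1 (-0.56 to -0.53), and 0.66 ± 0.12 between URE-AML and Hox-WT (adjusted p = 0.0011). *Aco1*, which encodes the iron sensor IRP1, took the opposite order, with means of 120 ± 19.2 CPM in Hox-URE, 70.9 ± 5.61 in Hox-WT and 45 ± 4.42 in URE-AML (SD, n = 3), and its difference of -0.66 ± 0.13 between URE-AML and Hox-WT became -0.58, no longer called, without URE-AML library 1.

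Guards against ferroptosis that work beside glutathione were 10 tested genes, with 1 higher and 2 lower calls for Hox-URE beside Hox-WT, 2 and 3 calls for URE-AML beside Hox-WT, and 3 and 2 for URE-AML beside Hox-URE. *Gch1*, whose product opens the synthesis of the antioxidant tetrahydrobiopterin, was at 25.0, 30.3 and 32.2 CPM in Hox-WT, 109, 97.6 and 101 in Hox-URE and 7.19, 4.61 and 5.11 in URE-AML. Like *Hmox1* it was highest in Hox-URE and lowest in URE-AML, with log2 differences of 1.81 ± 0.16 (edgeR adjusted p = 7.69e-06), -2.37 ± 0.17 (adjusted p = 1.15e-06) and -4.18 ± 0.18 (adjusted p = 3.49e-08). *Aifm2*, which encodes FSP1, the reductase that keeps coenzyme Q in its antioxidant form, was at 8.02, 10.1 and 8.16 CPM in Hox-WT, 5.83, 6.80 and 6.69 in Hox-URE and 35.3, 22.3 and 25.7 in URE-AML, 1.66 ± 0.18 above Hox-WT (adjusted p = 2.87e-05). *Scd1*, the desaturase that makes monounsaturated fatty acids, which resist peroxidation, was at 31.7, 59.6 and 31.8 CPM in Hox-WT, 0.947, 0.912 and 0.255 in Hox-URE and 0.0404, 0.190 and 0.0429 in URE-AML. It fell in both lines with the deletion, with log2 differences of -5.80 ± 0.42 and -8.80 ± 0.55 (adjusted p = 2.18e-06 and 4.46e-07), the second of which was -9.78 without URE-AML library 2.

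Of 6 tested genes that promote or mark ferroptosis, 4 were called higher against Hox-WT in Hox-URE and none lower (*Acsl4*, *Alox5*, *Sat1* and *Ptgs2*). In URE-AML 2 were called higher (*Alox5* and *Sat1*) and 1 lower (*Ptgs2*) than in Hox-WT, and *Ptgs2* was called lower than in Hox-URE. *Alox5*, the 5-lipoxygenase of leukotriene synthesis, was at 5.92, 4.25 and 5.85 CPM in Hox-WT, 22.3, 62.8 and 107 in Hox-URE and 59.3, 71.3 and 80.4 in URE-AML. All libraries with the deletion were above Hox-WT, by 3.58 ± 0.48 in Hox-URE (edgeR adjusted p = 0.000148) and 3.72 ± 0.48 in URE-AML (adjusted p = 8.66e-05). Without Hox-URE library 3, the highest of its line, the difference of *Alox5* between the Hox lines was 2.98. *Ptgs2*, the cyclooxygenase 2 gene often used as a ferroptosis marker, was at 4.12, 3.29 and 1.94 CPM in Hox-WT, 23.9, 11.4 and 7.05 in Hox-URE and 0.202, 0.476 and 0.215 in URE-AML, the order in which *Hmox1* and *Gch1* also stood.

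**Figure D4:**
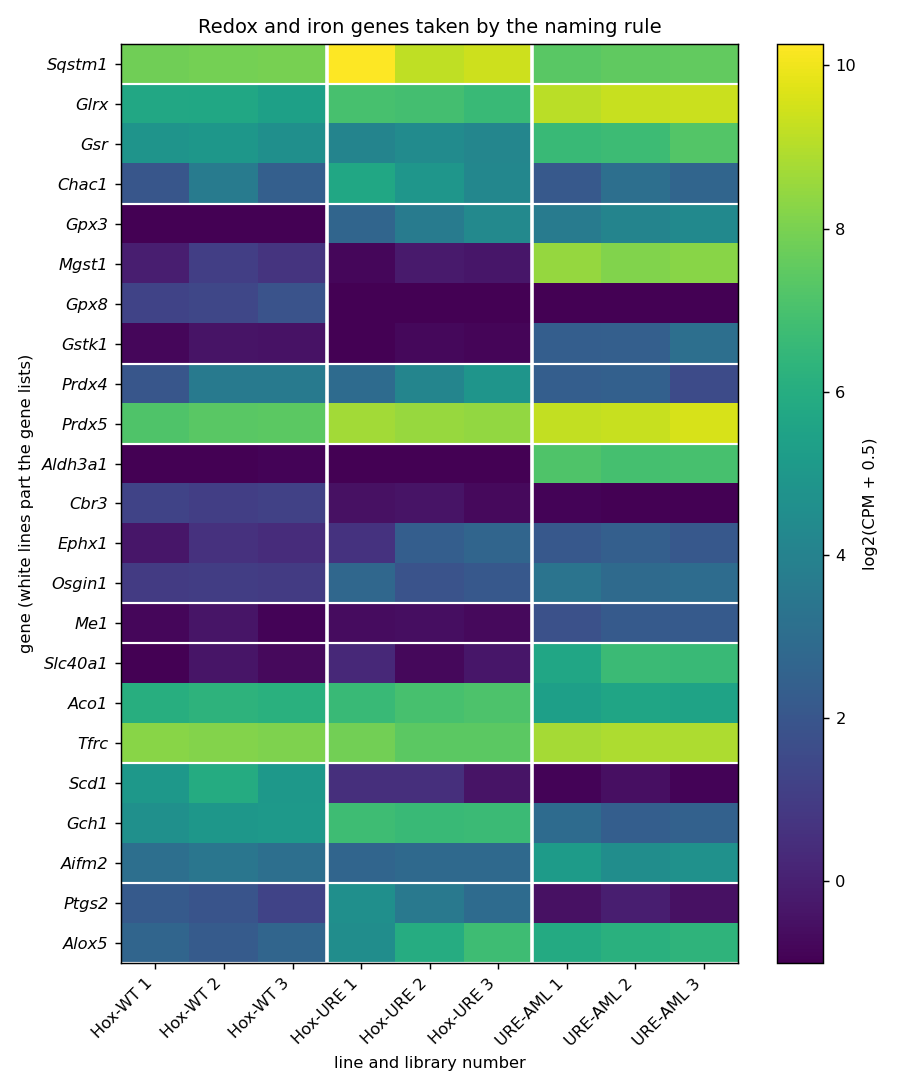
Levels of 23 redox and iron genes taken by a fixed rule, as log2(CPM + 0.5) in each library; white vertical lines part the 3 cell lines and white horizontal lines the gene lists. *Glrx*, *Gsr*, *Mgst1*, *Aldh3a1* and *Slc40a1* are brightest in URE-AML, *Sqstm1*, *Chac1*, *Gch1* and *Ptgs2* in Hox-URE, and *Scd1* in Hox-WT.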

How the data were processed

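Stranded poly-A RNA-seq libraries, 3 for each of the 3 lines, were analysed from 1 table. The authors ran salmon and tximport, and what they deposited per gene are estimated counts given as whole numbers, with no scaling for depth. The submitters' processing notes name Salmon and GRCm38, and the transcriptome release and any length scaling are not given in the sources used here. Salmon shares reads between similar transcripts, so genes with near-identical copies, *Gpx4* and its pseudogenes among them, are uncertain. Groups came from the sample titles. Differential expression was tested with edgeR 4.0.16 (R 4.3.3, TMM, filterByExpr with a minimum count of 10, glmQLFit and glmQLFTest, two-sided, all 9 libraries in 1 fit with line as the only factor), with calls at a Benjamini-Hochberg adjusted p under 0.05 where the change also exceeded 1.5-fold. The genes left out held 0.0499% of counts. SE is the log2 fold change divided by the root of F, intervals of log2 differences use the t quantile at the degrees of freedom of that test, and intervals of counts cover counting error only; a fold against a line without counts is set against 3 counts per library. The test was checked on simulated data with known changes. DESeq2 1.42.0, other scalings and filters, a test against the fold threshold, a replicate block and leaving out each library were tried. Members and gene lists were chosen with earlier results of these data known. From each list were named the genes called in all 3 comparisons, or called with an absolute log2 fold change over 2, at most 4 per list by size; for *Nfe2l2* and *Nqo1*, the 3 genes of most similar profile were named. The level of 1 monocyte and macrophage marker is not reported here. Gene positions and lengths came from GENCODE M21 (GRCm38), which held 54094 of the 54347 identifiers. Figures were drawn with matplotlib 3.10.9.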

Additional observations from a re-analysis of the deposited data

How the results depend on the processing

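Of 567 member values recomputed under the alternatives, 530 kept their direction and their side of the thresholds, 24 lost the call, 9 gained one and 4 changed sign. For 76 values of other named redox and iron genes, recomputed by the same alternatives chosen after seeing the data, 1375 of 1416 were unchanged in this sense and 41 lost the call. The calls of *Nqo1* held in all 18 alternatives in which it was tested. The sign changes concerned *Gpx4* between URE-AML and Hox-URE (0.085 with library size only, and -0.088 to 0.032 when single libraries were left out, above 0 without URE-AML library 1 or Hox-URE library 3) and *Gclc* between the Hox lines (-0.22 to 0.010 when single libraries were left out, above 0 without Hox-URE library 3), none of them called. The number of members called higher between URE-AML and Hox-WT, 3, became 1 with upper-quartile scaling, 5 with no fold threshold, 1 with a test against a fold change of 1.5, and 1 to 3 when single libraries were left out. Between Hox-URE and Hox-WT the 4 became 2 with library size only (*Hmox1* at 0.54 and *Gpx4* at 0.51 on the log2 scale) and 2 with the test against a fold change of 1.5, in which *Hmox1* and *Gpx4* had adjusted p-values of 0.35 and 0.427. Between URE-AML and Hox-URE the 1 became 3 with no fold threshold, and 0 with at least 10 counts in every library, a filter that *Nqo1* did not pass. The 2 called lower between URE-AML and Hox-WT became 1 with the test against a fold change of 1.5 (*Slc7a11*, adjusted p = 0.0926). At least 10 counts in every library left 10022 genes and 3200, 3602 and 3553 calls in place of 4873, 5648 and 5591. With no fold threshold the redox and iron lists held 30 higher and 35 lower calls between URE-AML and Hox-URE. Library size only shifted the median of all genes by 0.11 between URE-AML and Hox-URE, where the share of higher calls was 54.9% instead of 47.6%, and by -0.083 between Hox-URE and Hox-WT, where 2502 genes were called higher and 2545 lower instead of 2789 and 2084 (49.6% higher instead of 57.2%). Same-numbered libraries correlated in their deviations at 0.01 to 0.27 over the 3 pairs of lines, not all above 0.1, and every library of the Hox lines correlated best with its own number in the other Hox line, which did not hold for URE-AML library 1 against Hox-WT. Since the numbers are not stated to pair samples, the replicate block is an alternative only, under which 4908, 5679 and 5584 genes were called and every member kept its call. Levels under about 0.15 CPM are not distinguishable from 0 at this depth, which touches *Me1*, *Mgst1*, *Gstk1*, *Gpx3*, *Gpx8*, *Aldh3a1*, *Cbr3*, *Slc40a1* and *Scd1* in libraries of their lowest lines.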

Other observations

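*Gpx4-ps2*, a processed copy of *Gpx4*, had 4, 2 and 2 counts in Hox-WT, 27, 15 and 0 in Hox-URE and 0, 16 and 0 in URE-AML, and *Gpx4-ps1* had none in any library, beside 8207 to 14049 counts for *Gpx4* itself.

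The chromosomes that carry the members (2, 3, 8, 9 and 10) had median log2 fold changes between -0.09 and 0.11 over their tested genes in the 3 comparisons. Of the redox and iron genes of the lists, 8 were too low to be tested: *Bach2*, *Nfe2l3*, *Gpx7*, *Gsta3*, *Sod3*, *Akr1b8*, *Alox12* and *Alox15*. The symbol *Nnt*, which encodes the mitochondrial transhydrogenase, stands on more than 1 row of the table, and only the first of these was used, so its call in the NADPH list is uncertain.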
